A study of Mus musculus with 56 samples.

Results

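The expression of 8 genes whose products dampen Wnt signaling or limit its output, Axin2, Nkd1, Nkd2, Rnf43, Znrf3, Notum, Sp5 and Apcdd1, was followed by RNA-sequencing in mammary tumor cell lines with 7 genotypes of β-catenin. The 8 genes were listed by name and found by Entrez identifier among the 20314 genes of the deposited expression values. No cutoff on measured values picked them, but the list was made with earlier results of these data known. Of the 8 genes, 6 were tested because 2 or more of the 56 samples had 1 CPM or more, whereas Nkd1 and Sp5 stayed below this level in every sample. CPM, the unit used throughout, is a read count scaled to the effective size of its library.

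The cell lines were derived from mammary tumors of MMTV-PyMT mice on the FVB/N background, in which the polyoma middle T antigen is expressed in the mammary epithelium. According to the methods, fibroblasts were removed from the cultures by differential trypsinization. All lines shared the PyMT transgene and carried β-catenin fl/fl, D164A/fl, D164A/-, ΔC/fl, ΔC/-, dm/fl or dm/-. In fl/fl cells both alleles are floxed, in the lines named "/fl" a mutant allele stands beside a floxed allele, and in the lines named "/-" the floxed allele was deleted by infection with a Cre-expressing adenovirus followed by sorting for GFP. D164A is an amino acid substitution, and the labels do not spell out ΔC and dm. Each genotype had 8 samples, that is 2 replicates each of 4 conditions. These were Wnt3a (100 ng/ml over 3 days), its untreated control, TGFβ (2 ng/ml over 4 days) and a separate untreated control. The study gives the same doses and times for its RNA-sequencing, without naming ΔC or dm lines. A treatment protocol in the labels, which names other lines than these, also gives the doses. The study describes 2 independent fl/fl lines, but which library is from which line is not given, nor is the number of lines of the other genotypes. Therefore a genotype cannot be told apart from the line that carries it. The p-values rest on the spread between replicates, pooled for each gene over all 28 conditions, and the 2 replicates may be cultures of the same line.

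In canonical Wnt signaling, a Wnt ligand binds Frizzled and Lrp receptors, β-catenin escapes the destruction complex, enters the nucleus and activates genes together with Tcf/Lef factors. Several of the activated genes encode inhibitors of the same pathway. Axin2 is a scaffold of the destruction complex, Nkd1 and Nkd2 bind Dishevelled, Rnf43 and Znrf3 are transmembrane ubiquitin ligases that remove Frizzled from the cell surface, Notum is a secreted enzyme that removes the lipid of Wnt ligands, Apcdd1 is a membrane protein that inhibits signaling at the receptors, and Sp5 is a transcription factor that represses a set of Wnt target genes. Axin2 is widely used as a readout of canonical Wnt signaling.

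Windows upstream of a transcript start of Sp5 and of Axin2 are shown because both genes are textbook Wnt targets, the former with few reads and the latter induced by Wnt3a in these cells. The sequences are from RefSeq on GRCm38.p6, plus strand, 5′ to 3′, and cover the 250 bases before the start used by its promoter table. For Axin2 this start lies inside the gene span given below, as it does for Nkd1, so other starts of these genes were not examined. Capitals mark each match to CTTTGA or CTTTGT, short forms of the Tcf/Lef recognition sequence, searched on both strands.
Sp5 at chr2:70474673-70474922: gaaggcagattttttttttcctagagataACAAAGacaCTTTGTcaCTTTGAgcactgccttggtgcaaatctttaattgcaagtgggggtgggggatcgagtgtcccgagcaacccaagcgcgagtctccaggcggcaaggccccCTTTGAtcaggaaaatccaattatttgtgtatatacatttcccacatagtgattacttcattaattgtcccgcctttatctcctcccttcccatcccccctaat
Axin2 at chr11:108920099-108920348: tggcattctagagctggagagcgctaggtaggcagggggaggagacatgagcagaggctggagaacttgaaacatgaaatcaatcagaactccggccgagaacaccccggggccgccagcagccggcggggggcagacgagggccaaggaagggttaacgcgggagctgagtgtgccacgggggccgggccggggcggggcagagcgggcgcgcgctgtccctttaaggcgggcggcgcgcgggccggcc
The Sp5 window held 4 matches, a number reached by 0.094% of 32851 windows of the same length, and 27.625% of these windows held at least 1 match. The Axin2 window held 0 matches, as did the windows of Nkd1, Nkd2 and Rnf43. A match is a description of these letters, and 5 of the 8 genes had a window in the annotation used.

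The libraries held 22.4 to 33.7 M reads in genes (26.8 M reads at the median, M for mega), and a single read was worth 0.0306 to 0.0486 CPM. Ctnnb1, which encodes β-catenin, was present in all 56 samples at 531 to 3188 CPM. A gene total shows neither the point mutation nor the exons removed by Cre, so it does not check the genotype labels. The 6 epithelial markers summed to 1185 to 8284 CPM, and the immune markers Ptprc, Adgre1 and Cd3e stayed at or below 0.208 CPM, whereas the macrophage marker Cd68 reached 79.4 CPM and the endothelial marker Cdh5 35.0 CPM. The fibroblast markers Lum and Thy1 stayed at or below 0.116 CPM, but the sum of 8 fibroblast markers, in which Pdgfrb reached 494 and Pdgfra 302 CPM, differed by genotype. It lay between 79.1 and 779 CPM in ΔC/fl cells against 6.46 and 26.3 CPM in ΔC/- cells, and between 72.0 and 554 CPM in dm/fl cells against 6.42 and 127 CPM in dm/- cells. Single epithelial markers differed too. Median Krt14 was 546 CPM in ΔC/fl against 34.4 in ΔC/- cells, and 590 CPM in dm/fl against 118 in dm/- cells. Median Krt5 was 152 CPM in D164A/fl against 10.3 in D164A/- cells. In the ΔC pair Krt8 (729 against 1115 CPM) and Krt18 (623 against 1590 CPM) went the other way. The part of these markers in the results below was not tested. Log2 fold changes are differences of log2(CPM + 1), a scale on which changes at low levels appear smaller than they are, and they were tested with limma across 13754 genes. A gene was called when its adjusted p was at most 0.05 and its log2 fold change at least 1 in size.

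Per kb of annotated exon, the median level over the 56 samples was 7.38 CPM per kb for Nkd2, 5.55 for Znrf3, 3.81 for Notum, 0.84 for Apcdd1, 0.25 for Rnf43 and 0.209 CPM per kb for Axin2. The order was not the same in each genotype. In untreated ΔC/fl cells of the Wnt3a experiment the mean level of Notum was 65.7 CPM per kb against 7.52 CPM per kb for Nkd2, and in untreated dm/- cells that of Nkd2 was 0.35 CPM per kb against 5.81 CPM per kb for Znrf3. The whole range of Znrf3 ran from 23.6 to 65.0 CPM, while the other 5 genes fell below 2 CPM in at least 1 sample.

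Which of these genes answer to Wnt3a was asked in each genotype by comparing treated with untreated cells. In fl/fl cells, 1 of the 6 tested genes rose, against 0.153% of all genes tested, and this was Axin2. In D164A/fl cells 4 of 6 rose (Axin2, Notum, Rnf43 and Apcdd1) against 2.85% of all genes, and in D164A/- cells 2 of 6 rose (Axin2 and Rnf43) against 0.407%. Only Axin2 was called in ΔC/fl cells (background 0.131%), in ΔC/- cells (0.0291%) and in dm/fl cells (0.342%). In dm/- cells 0 of 6 were called, and so were 0% of all genes: limma called no gene in either direction there, 29 genes had an unadjusted p below 0.05, none of them among the 6, and edgeR's test also called none of the 6. In this main fit none of the 6 was called lower with Wnt3a in any genotype. Replicate libraries correlated at a Pearson r of 0.911 to 0.997 on log2(CPM + 1). The treated dm/- pair of the Wnt3a experiment was at 0.942, and the lowest value was that of untreated dm/fl cells in this experiment. Averaged over the 7 genotypes, Axin2 and Notum rose (2 of 6, background 0.378%). The median log2 fold change of the 6 tested genes was 2.47 in D164A/fl, 1.34 in D164A/-, 0.49 in fl/fl, 0.44 in ΔC/fl, 0.4 in dm/fl, 0.39 in ΔC/- and 0 in dm/- cells, beside -0.03 to 0.07 over all genes.

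Axin2 (Entrez 12006, chromosome 11, 108917828 to 108950783 of GRCm38) ranged from 0 to 7.12 CPM in the 28 untreated samples. In the Wnt3a experiment, untreated fl/fl cells had 0.252 and 0.652 CPM in the 2 replicates, and Wnt3a brought them to 121 and 51.0 CPM. D164A/fl cells went from 1.18 and 1.66 to 154 and 149 CPM. D164A/- cells went from 0.365 and 1.52 to 39.9 and 95.3 CPM. In these 3 genotypes treated and untreated cells did not overlap, and the replicates with Wnt3a differed by more than 2-fold in fl/fl and D164A/- cells. ΔC/fl cells went from 0.778 and 3.19 to 67.4 and 100 CPM, and dm/fl cells from 3.18 and 1.54 to 127 and 103 CPM. ΔC/- cells went from 0.29 and 0.555 to 4.59 and 17.4 CPM. The 2 treated ΔC/- libraries were above all untreated libraries of the Wnt3a experiment and below the treated libraries of every genotype other than dm/-. In dm/- cells Axin2 had 0 reads in both untreated libraries and 0 and 2 reads with Wnt3a, the latter equal to 0.0791 CPM. Over all 8 dm/- samples, 3 Axin2 reads were found among 218 M reads, while each other genotype had 873 to 9059 reads of it. Exons of Axin2 overlap those of the antisense gene Gm11670 over 209 bases, and whether counting used the strand is not given in the sources used here.

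**Figure D1:**
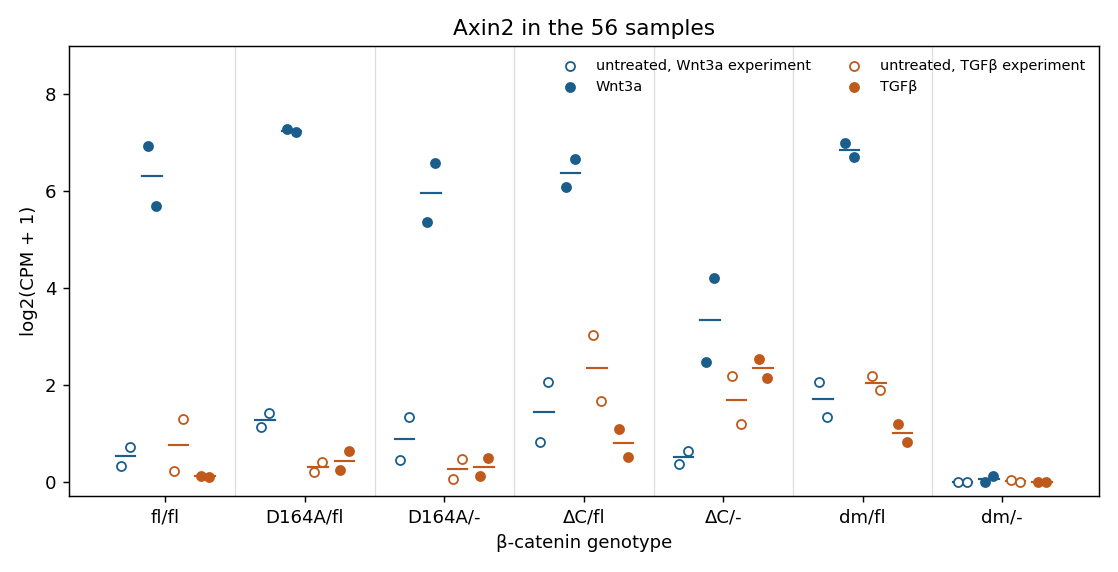
Axin2 in the 56 samples as log2(CPM + 1), grouped by β-catenin genotype; open points are untreated and filled points treated samples, blue for the Wnt3a and orange for the TGFβ experiment, and bars are means of 2 replicates. Wnt3a-treated samples lie above the untreated ones in 6 genotypes, ΔC/- cells reach 4.59 and 17.4 CPM, and dm/- cells stay at or near 0.

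The mean rise of Axin2 was 190-fold in fl/fl cells, 107-fold in D164A/fl, 71.8-fold in D164A/-, 42.2-fold in ΔC/fl, 48.9-fold in dm/fl and 26.0-fold in ΔC/- cells, each as a ratio of mean CPM. On the log2(CPM + 1) scale the response was 5.79 in fl/fl cells (SE 0.49, limma adjusted p = 3.12e-09), and 5.98, 5.08, 4.93 and 5.15 in D164A/fl, D164A/-, ΔC/fl and dm/fl cells, all called. Among all 13754 genes, the log2 fold change of Axin2 ranked as number 1 from the top in fl/fl, ΔC/fl, ΔC/- and dm/fl cells, as number 2 in D164A/- cells and as number 3 in D164A/fl cells. The response in ΔC/- cells was 2.84 (limma adjusted p = 0.0107) and rested on the replicate with 17.4 CPM. Without this library it was 1.98 (adjusted p = 0.641), without the untreated replicate 1 it was 2.71 (adjusted p = 0.323), and edgeR's test on the whole reads gave an adjusted p of 0.203. With a trend on gene GC content removed, the ΔC/- response was 2.45 (limma adjusted p = 0.163). Samples of the Wnt3a experiment alone gave 2.84 (limma adjusted p = 0.495). The ΔC/- call was kept under 3 of 8 alternative settings. In dm/- cells the log2 fold change was 0.05.

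Whether the size of the induction depended on the genotype was tested as the difference between 2 responses. All 6 comparisons with fl/fl cells share the same 4 fl/fl samples. The Axin2 response of dm/- cells was lower than that of fl/fl cells (difference -5.73 on the log2 scale, SE 0.7, limma adjusted p = 3.31e-05), 1 of 6 tested genes called lower, beside 0.0364% of all genes. It was also lower than that of dm/fl cells (-5.09, SE 0.7, limma adjusted p = 0.000133), 1 of 6, beside 0.08% of all genes. With 0 and 2 reads in dm/- cells these 2 differences depend on the scale: edgeR's test on the reads gave adjusted p-values of 1 and 0.98, and a pseudocount of 0.1 gave 0.108 for the second. For ΔC/- against ΔC/fl cells the difference in the Axin2 response was -2.09 with a 95% interval from -3.52 to -0.66, but its limma adjusted p was 0.977, and 0 of 6 genes were called, beside 0.00727% of all genes. Its size also depends on the scale, with untreated means of 0.422 CPM in ΔC/- and 1.98 CPM in ΔC/fl cells. As ratios of mean CPM the rises were 26.0-fold and 42.2-fold. The ΔC/- response of 2.84 was 4.16 with a pseudocount of 0.1 and 4.67 with edgeR. Against fl/fl cells the ΔC/- response differed by -2.95 (interval -4.37 to -1.52, limma adjusted p = 0.22), with 0 of 6 called beside 0.0291%. Without fl/fl replicate 2 with Wnt3a this difference was -3.56 (adjusted p = 0.0169). For D164A/- against D164A/fl cells the difference was -0.9 (interval -2.33 to 0.52), and 0 of 6 genes were called beside 0.974% of all genes. In the comparisons of D164A/-, ΔC/fl and dm/fl with fl/fl cells, 0 of 6 genes were called, beside 0.24%, 0.0218% and 0.145% of all genes, and the Axin2 intervals ran from -2.28 at the lowest to 0.79 at the highest. D164A/fl cells differed from fl/fl cells in the response of Rnf43 (1 of 6 called higher, beside 1.4% of all genes), with an Axin2 difference of 0.19 (interval -1.23 to 1.62).

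**Figure D2:**
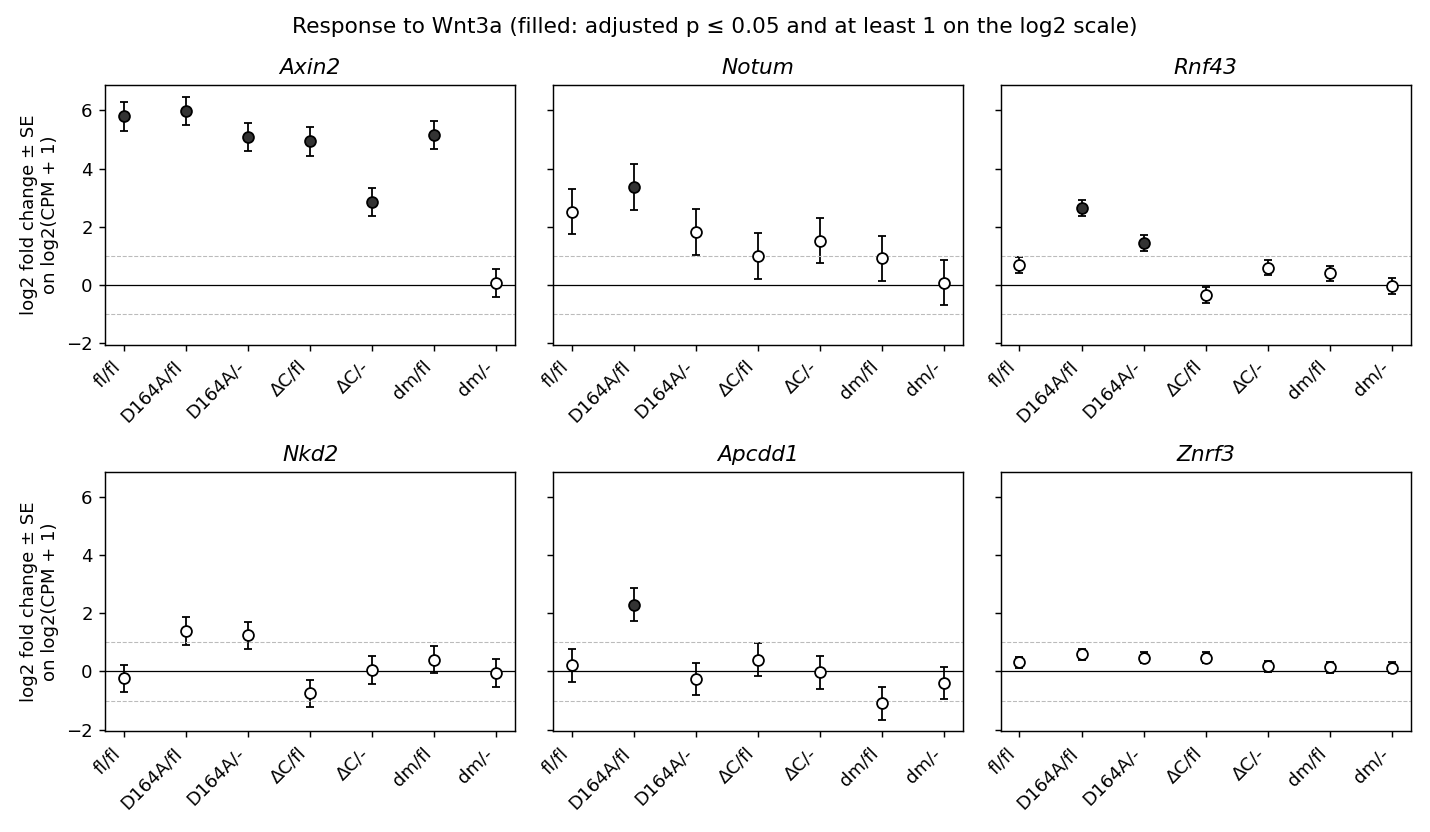
Response to Wnt3a of the 6 tested genes in each genotype, as the log2 fold change on log2(CPM + 1) with its standard error from limma (2 treated against 2 untreated samples); filled points passed an adjusted p of 0.05 and a log2 fold change of 1, and dashed lines mark 1 and -1. Axin2 is filled in 6 of 7 genotypes, Rnf43 in 2, Notum and Apcdd1 in 1, and Nkd2 and Znrf3 in none. The standard error of a gene uses its replicate spread pooled over all 28 conditions.

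Notum (Entrez 77583, chromosome 11, 120653788 to 120661193) was the member whose pattern over the conditions was nearest to that of Axin2. In fl/fl cells it went from 2.9 and 2.91 CPM to 42.9 and 10.3 CPM with Wnt3a. In D164A/fl cells it went from 8.77 and 28.8 to 149 and 205 CPM, a log2 fold change of 3.36 (SE 0.78, limma adjusted p = 0.00479). As a ratio of mean CPM, Notum rose 9.15-fold in fl/fl and 9.42-fold in D164A/fl cells. The difference between these 2 responses on the log2(CPM + 1) scale was 0.85 and not called (limma adjusted p = 0.734). Treated and untreated cells did not overlap in either genotype, but in fl/fl cells the change of 2.51 missed the threshold (adjusted p = 0.181) and passed it without the treated replicate 2 (3.49, adjusted p = 0.02). In D164A/fl cells the call was lost without the untreated replicate 1 (2.56, adjusted p = 0.166) or the treated replicate 2 (3.13, adjusted p = 0.0803). ΔC/fl cells already had 72.5 and 244 CPM of Notum without Wnt3a and reached 313 and 225 CPM. D164A/- cells had 8.64 and 35.3 against 29.5 and 139 CPM, ΔC/- cells 8.57 and 59.5 against 34.7 and 131 CPM, and dm/fl cells 84.3 and 19.6 against 68.8 and 87.6 CPM. In these 4 genotypes treated and untreated samples overlapped. In dm/- cells Notum stayed at 0.188 and 0.712 CPM untreated and 0.26 and 0.791 CPM with Wnt3a. Averaged over the 7 genotypes, the response was 1.6 (limma adjusted p = 0.000504). Exons of Notum overlap antisense exons of Notumos over 708 and of Myadml2os over 210 bases.

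Rnf43 (Entrez 207742, chromosome 11, 87663087 to 87735539) was called higher with Wnt3a in D164A/fl and D164A/- cells. D164A/fl cells went from 2.94 and 5.12 CPM to 27.9 and 31.3 CPM, and D164A/- cells from 9.44 and 8.53 to 22.7 and 29.9 CPM. The log2 fold changes were 2.64 (SE 0.27, limma adjusted p = 7.56e-09) and 1.44 (SE 0.27, limma adjusted p = 0.00249). The call in D164A/- cells was lost without the treated replicate 2 (1.25, adjusted p = 0.158) and with edgeR (adjusted p = 0.522). Rnf43 in fl/fl cells was at 0.221 and 0.192 CPM untreated and 1.64 and 0.406 CPM with Wnt3a, a change of 0.67 that was not called unless the treated replicate 2 was left out (1.13, adjusted p = 0.0217). As a ratio of mean CPM, the fl/fl rise was 4.95-fold, from 12 to 49 reads and without overlap. This ratio was 7.34-fold in D164A/fl and 2.92-fold in D164A/- cells. On the log2(CPM + 1) scale the response in D164A/fl cells exceeded that in fl/fl cells by 1.96 (SE 0.38, limma adjusted p = 0.0014). This difference was not called with a pseudocount of 0.1 (1.28, adjusted p = 0.497) or with edgeR (0.59, adjusted p = 0.75). The study lists Rnf43 among genes that it chose on samples of this series, so its direction in the D164A lines is not independent evidence. In ΔC/fl, ΔC/-, dm/fl and dm/- cells the log2 fold changes were -0.35, 0.59, 0.39 and -0.05, none of them called. Of these, ΔC/- cells alone showed no overlap of treated and untreated samples (1.62-fold).

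Znrf3, the paralog of Rnf43 (Entrez 407821, chromosome 11, 5276329 to 5444847), showed small shifts. Its mean rose from 38.7 to 58.3 CPM in D164A/fl cells, and no genotype gave a call, with log2 fold changes between 0.13 and 0.6. Averaged over the 7 genotypes the change was 0.33 (SE 0.07, limma adjusted p = 0.00334), positive in 7 of 7 genotypes and below the size of 1 that a call required.

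Nkd2 (Entrez 72293, chromosome 13, 73818534 to 73847631) was at its highest in D164A/fl cells, where it went from 260 and 428 CPM to 899 and 851 CPM with Wnt3a, without overlap. In D164A/- cells it went from 78.2 and 108 to 169 and 284 CPM. The log2 fold changes of 1.39 and 1.24 missed the threshold (limma adjusted p = 0.0934 and 0.631). In fl/fl cells the treated replicates, 84.6 and 18.5 CPM, lay on both sides of the untreated ones, 60.3 and 37.0 CPM. The difference of 1.63 between the D164A/fl and fl/fl responses was not called (limma adjusted p = 0.308) unless fl/fl replicate 1 with Wnt3a was left out (2.7, adjusted p = 0.0117). Nkd2 stayed between 16.9 and 52.7 CPM in ΔC/fl and ΔC/- cells of the Wnt3a experiment, and between 1.5 and 6.44 CPM in dm/fl and dm/- cells.

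Apcdd1 (Entrez 494504, chromosome 18, 62922327 to 62953815) responded to Wnt3a in D164A/fl cells, from 2.43 and 3.89 CPM to 19.5 and 18.9 CPM. The log2 fold change was 2.3 (SE 0.56, limma adjusted p = 0.00739), and the call was lost when the untreated replicate 1 (2.04, adjusted p = 0.11), the treated replicate 1 (2.28, adjusted p = 0.0712) or the treated replicate 2 (2.32, adjusted p = 0.063) was left out. D164A/- cells had 3.21 and 5.66 CPM untreated and 2.68 and 4.34 CPM with Wnt3a. The difference between these 2 responses was -2.55 (interval -4.16 to -0.95) and was not called (limma adjusted p = 0.186). Apcdd1 in fl/fl cells was at 9.18 to 12.7 CPM with and without Wnt3a. In dm/fl cells it had 72.2 and 33.2 CPM untreated and 36.7 and 13.4 CPM with Wnt3a, a change of -1.1 that was called only without the untreated replicate 2 among the libraries left out in turn (-1.65, adjusted p = 0.0407). With a block for the replicate number, this dm/fl change of -1.1 was also called lower (limma adjusted p = 0.00883). In ΔC/- cells 1 and 0 reads were found untreated and 0 and 0 reads with Wnt3a.

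Sp5 (Entrez 64406, chromosome 2, 70474923 to 70477726), the silent gene with 4 matches upstream of its start, had 61 reads in the 56 samples together and at most 9 reads in a sample. These reads came from D164A/fl, D164A/-, dm/fl and, with 1 read, ΔC/fl cells. With Wnt3a D164A/fl cells had 2 and 5 reads against 3 and 2 untreated, and D164A/- cells 4 and 6 against 0 and 4. Nkd1 (Entrez 93960, chromosome 8, 88521342 to 88594887) had 14 reads in all, at most 3 in a sample, and 48 of 56 samples had none. A response of these 2 genes was not detectable at this depth.

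**Figure D3:**
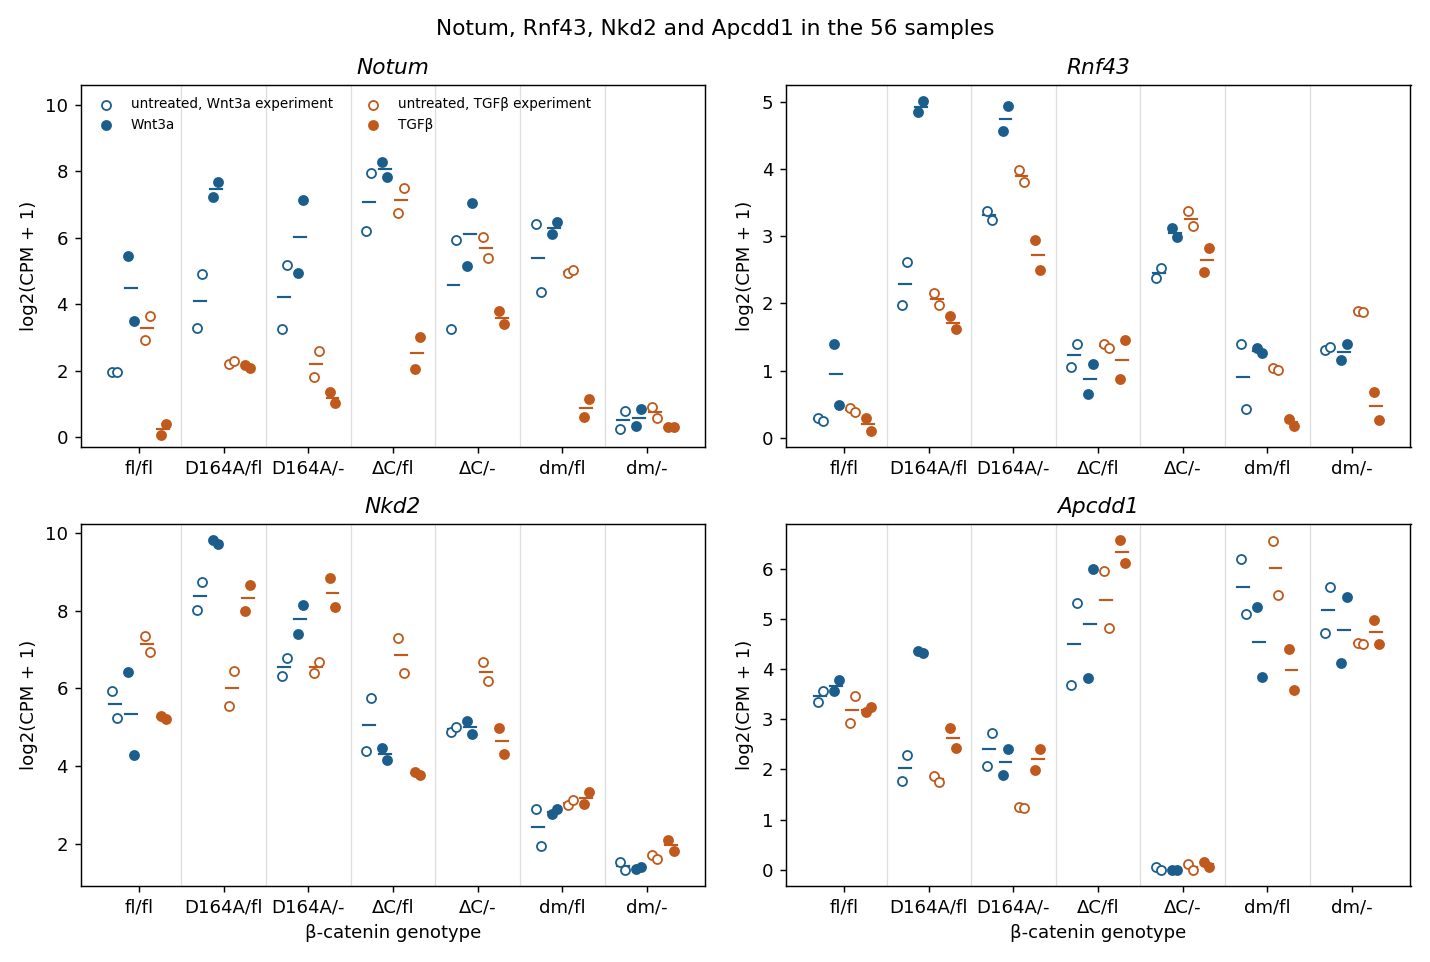
Levels of Notum, Rnf43, Nkd2 and Apcdd1 in the 56 samples as log2(CPM + 1), with genotypes along the horizontal axis and symbols as in the plot of Axin2; the vertical scales differ between genes. Notum stays below 1 CPM in dm/- cells, Rnf43 and Nkd2 reach their highest values in D164A lines, and Apcdd1 is at or near 0 in ΔC/- cells only.

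The levels reached with Wnt3a were compared between cells that had lost the floxed allele and cells that kept it. For ΔC, 2 of 6 genes were lower in the deleted line (Axin2 and Apcdd1, background 4.7%) and 1 was higher (Rnf43, background 4.89%). For dm, 3 of 6 were lower (Axin2, Notum and Nkd2), beside 8.76% of all genes. For D164A, 2 of 6 were lower (Nkd2 and Apcdd1), beside 3.38%. Axin2 with Wnt3a was lower in ΔC/- than in ΔC/fl cells (difference -3.04 on the log2 scale, SE 0.49, limma adjusted p = 3.31e-05), and the ratio of the pooled reads was 8.06-fold. It was also lower in dm/- than in dm/fl cells (difference -6.8, SE 0.49, limma adjusted p = 2.03e-12). The 6151 reads of dm/fl against 2 reads of dm/- cells corresponded to a 3003-fold difference with an exact 95% interval from 831 to 24804, which covers counting error only. For D164A/- against D164A/fl cells the Axin2 difference was -1.28 (interval -2.29 to -0.27, limma adjusted p = 0.186), and it was called without the D164A/- treated replicate 2 (-1.9, adjusted p = 0.0497). The mean Axin2 level under Wnt3a was lower in the deleted line in all 3 pairs, and the test called 2 of them, while the difference in the response itself was called for dm alone.

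Notum with Wnt3a was at 68.8 and 87.6 CPM in dm/fl against 0.26 and 0.791 CPM in dm/- cells (log2 difference -5.71, SE 0.78, limma adjusted p = 1.07e-06), a 152-fold difference of pooled reads. Between ΔC/fl and ΔC/- cells the Notum difference of -1.96 was not called (adjusted p = 0.102) but was without the ΔC/- treated replicate 2 (-2.9, adjusted p = 0.03). Rnf43 went the other way in the ΔC pair, with 0.57 and 1.14 CPM in ΔC/fl and 7.7 and 6.91 CPM in ΔC/- cells treated with Wnt3a (difference 2.18, SE 0.27, limma adjusted p = 3.63e-07). Nkd2 with Wnt3a was lower in D164A/- than in D164A/fl cells (-1.99, limma adjusted p = 0.00574). This call was lost without replicate 1 of D164A/fl (-1.95, adjusted p = 0.0662) or of D164A/- cells (-1.62, adjusted p = 0.225). In the dm pair the Nkd2 difference of -1.45 (limma adjusted p = 0.0248) was lost whichever of the 4 libraries was left out, with values from -1.52 to -1.39 and adjusted p-values from 0.055 to 0.113. Apcdd1 with Wnt3a fell from 19.5 and 18.9 CPM in D164A/fl to 2.68 and 4.34 CPM in D164A/- cells (-2.19, limma adjusted p = 0.0115), a call that was lost without either D164A/fl replicate or without D164A/- replicate 1, with values of -2.16, -2.21 and -1.92 and adjusted p-values of 0.101, 0.0848 and 0.231. In the ΔC pair Apcdd1 had 2064 reads in the 2 treated ΔC/fl libraries and 0 in the 2 treated ΔC/- libraries, which makes it at least 623-fold lower (against 3 reads over the group).

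Differences were already present without cytokine, where the 2 untreated groups of both experiments gave 4 against 4 samples. For dm, 3 of 6 genes were lower in the deleted line (Axin2, Notum and Nkd2), beside 10.8% of all genes. For ΔC, 2 of 6 were lower (Notum and Apcdd1, background 6.91%) and 1 was higher (Rnf43, background 5.31%). For D164A, Rnf43 was higher (1 of 6, background 4.05%). Untreated Axin2 ran from 1.54 to 3.57 CPM in dm/fl cells, whereas dm/- cells had 1 read in 4 libraries. The log2 difference was -1.86 (SE 0.35, limma adjusted p = 6.78e-05), -1.7 within the Wnt3a experiment and -2.03 within the TGFβ experiment. For the ΔC pair it was -0.8 (limma adjusted p = 0.0951), with untreated ΔC/- cells at 0.29 and 0.555 CPM in the Wnt3a experiment and 3.53 and 1.29 CPM in the TGFβ experiment. It was called without ΔC/fl replicate 1 of the Wnt3a experiment (-1.11, adjusted p = 0.0315) or ΔC/fl replicate 2 of the TGFβ experiment (-1.14, adjusted p = 0.0268).

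Untreated Notum ran from 19.6 to 84.3 CPM in dm/fl and from 0.188 to 0.886 CPM in dm/- cells (log2 difference -4.56, SE 0.55, limma adjusted p = 4.42e-08). In the ΔC pair Notum differed by -1.95 (limma adjusted p = 0.00819), by -2.48 within the Wnt3a and by -1.42 within the TGFβ experiment, the latter not called (adjusted p = 0.258). The call also ended without ΔC/- replicate 1 (-1.28, adjusted p = 0.132) or ΔC/fl replicate 2 (-1.51, adjusted p = 0.0754) of the Wnt3a experiment. Apcdd1 had 3639 reads in the 4 untreated ΔC/fl libraries and 3 reads in the 4 untreated ΔC/- libraries, a 1213-fold difference with an exact interval from 415 to 5883 (log2 difference -4.9, limma adjusted p = 1.12e-11). Rnf43 ran from 1.07 to 1.64 CPM in ΔC/fl and from 4.22 to 9.36 CPM in ΔC/- cells (1.57, SE 0.19, limma adjusted p = 9.14e-08), and from 2.93 to 5.12 CPM in D164A/fl and from 8.53 to 14.9 CPM in D164A/- cells (1.43, SE 0.19, limma adjusted p = 6.83e-07). These groups of Rnf43 values did not overlap. In the dm pair the Rnf43 difference was 0.64. Untreated Nkd2 was lower in dm/- than in dm/fl cells (-1.2, limma adjusted p = 0.00507), within the TGFβ experiment (-1.42) but not within the Wnt3a experiment (-0.99, adjusted p = 0.14), and not without dm/fl replicate 1 of the latter (-0.96). In the D164A pair the Nkd2 difference was -0.65 and not called (limma adjusted p = 0.2), and its sign differed between the experiments. It was -1.85 within the Wnt3a experiment (limma adjusted p = 0.0159, called) and 0.55 within the TGFβ experiment (limma adjusted p = 0.496). Untreated Apcdd1 differed in the dm pair by -0.98 (limma adjusted p = 0.0538). It was called without dm/fl replicate 2 of the Wnt3a (-1.25, adjusted p = 0.0185) or the TGFβ experiment (-1.25, adjusted p = 0.0289), or without dm/- replicate 2 of the Wnt3a experiment (-1.21, adjusted p = 0.0348). The summed fibroblast markers also differed in the ΔC and dm pairs, as given above, and the sum of 6 immune and endothelial markers was 8.57 to 79.7 CPM in ΔC/- and 12.9 to 62.2 CPM in dm/- cells against 2.28 to 10.5 CPM in ΔC/fl and 1.88 to 37.0 CPM in dm/fl cells. In ΔC/- and dm/- cells the median of Cd68 was 24.3 and 23.2 CPM, whereas no other marker of this sum had a median above 0.251 CPM. The part of all these markers in the differences was not tested, and in bulk RNA fewer cells of a type cannot be told apart from less RNA per cell.

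The TGFβ experiment asked the same of a cytokine that does not act through β-catenin as its direct effector. Most calls were lower. In fl/fl cells 2 of 6 fell (Notum and Nkd2, background 2.94%), in ΔC/fl cells 3 of 6 (Axin2, Notum and Nkd2, 4.49%), in ΔC/- cells 1 of 6 (Nkd2, 3.69%), in dm/fl cells 2 of 6 (Notum and Apcdd1, 6.88%) and in dm/- cells 1 of 6 (Rnf43, 2.44%). In D164A/fl cells 1 of 6 rose (Nkd2, 2.5%), and in D164A/- cells 1 of 6 rose (Nkd2, 2.7%) and 1 fell (Rnf43, 1.36%). Averaged over the genotypes, Notum fell (1 of 6, background 2.2%).

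Notum went from 6.52 and 11.5 CPM to 0.0444 and 0.331 CPM with TGFβ in fl/fl cells, from 106 and 180 to 3.11 and 7.15 CPM in ΔC/fl cells, and from 29.9 and 31.4 to 0.53 and 1.22 CPM in dm/fl cells. These are ratios of 48.0, 27.9 and 35.1 in mean CPM, with log2 fold changes of -3.04, -4.59 and -4.1 (limma adjusted p = 0.00966, 7.89e-05 and 0.000231). In ΔC/- cells the replicates also did not overlap, 63.5 and 41.3 against 12.9 and 9.56 CPM, but the change of -2.11 missed the threshold (adjusted p = 0.0952). It passed in the fit on the TGFβ samples alone (adjusted p = 0.000268). In D164A/fl cells Notum was at 3.57 and 3.89 CPM untreated and 3.49 and 3.26 CPM with TGFβ. The call in fl/fl cells was lost without either treated replicate or without the untreated replicate 2, with values from -3.21 to -2.67 and adjusted p-values from 0.0517 to 0.13.

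Nkd2 moved in opposite directions in different genotypes. It fell with TGFβ in fl/fl cells from 163.5 and 121 to 38.1 and 36.2 CPM, in ΔC/fl cells from 158 and 82.7 to 13.5 and 12.6 CPM, and in ΔC/- cells from 101 and 72.0 to 30.6 and 18.7 CPM (log2 fold changes -1.9, -3.04 and -1.79). It rose in D164A/fl cells from 45.6 and 86.9 to 252 and 405 CPM and in D164A/- cells from 83.6 and 102 to 456 and 271 CPM (2.33 and 1.92, limma adjusted p = 0.00185 and 0.00937). Treated and untreated replicates did not overlap in any of these 5 genotypes, and no test of the difference between the responses to TGFβ was made. Each response is against the untreated control of the TGFβ experiment, and untreated Nkd2 differed between the experiments. Its untreated means in the Wnt3a and TGFβ experiments were 344 and 66.2 CPM in D164A/fl and 48.6 and 142 CPM in fl/fl cells. They were 36.3 and 120 CPM in ΔC/fl, 29.9 and 86.6 CPM in ΔC/-, and 93.2 and 93.0 CPM in D164A/- cells. In dm/fl and dm/- cells the changes with TGFβ were 0.13 and 0.31. With the exception of ΔC/fl cells, these calls were lost without 1 library: in fl/fl cells without the untreated replicate 1 or either treated replicate (-1.93 to -1.68), in D164A/fl cells without the untreated replicate 1 (1.87) or the treated replicate 2 (1.99), in D164A/- cells without replicate 1, untreated (1.77) or treated (1.54), and in ΔC/- cells without the untreated replicate 1 (-1.55) or the treated replicate 2 (-1.45). Nkd2 is on a list that the study chose on samples of this series, which is not independent evidence.

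Axin2 was lower with TGFβ in ΔC/fl cells, 7.12 and 2.16 against 1.12 and 0.425 CPM (log2 fold change -1.54, limma adjusted p = 0.0408). The call did not hold without the untreated replicate 1 (-0.86, adjusted p = 0.59), the treated replicate 1 (-1.83, adjusted p = 0.0853) or the treated replicate 2 (-1.26, adjusted p = 0.287), nor with edgeR (adjusted p = 0.0782). The dm/fl cells had 3.57 and 2.74 against 1.28 and 0.756 CPM (-1.05, adjusted p = 0.213). ΔC/- cells had 3.53 and 1.29 untreated and 4.82 and 3.44 CPM with TGFβ, which overlapped. Rnf43 had a negative log2 fold change in every genotype, with a mean of -0.68 (limma adjusted p = 2.92e-06), below the size required. In dm/fl cells it fell 5.94-fold in mean CPM without overlap, a change of -0.8 that was too small for a call. There a pseudocount of 0.1 gave -2.07 (limma adjusted p = 0.00323) and edgeR -2.53 (adjusted p = 0.00446), both called. It was called in dm/- cells, from 2.72 and 2.65 to 0.606 and 0.198 CPM (-1.41, limma adjusted p = 0.000513). The other call was in D164A/- cells, from 14.9 and 13.1 to 6.7 and 4.65 CPM (-1.18, limma adjusted p = 0.00449). The latter call was lost without the untreated replicate 1 (-1.09, adjusted p = 0.0861) or the treated replicate 2 (-0.96, adjusted p = 0.148) and with edgeR (adjusted p = 0.189). Apcdd1 fell in dm/fl cells from 92.4 and 43.3 to 20.2 and 10.9 CPM (-2.02, limma adjusted p = 0.0112), and not without the untreated replicate 1 (-1.48, adjusted p = 0.262) or the treated replicate 2 (-1.6, adjusted p = 0.195). The summed fibroblast markers of dm/fl cells went from 554 and 332 to 142 and 105 CPM in the same samples, and their part was not tested. Znrf3 was not called in any genotype.

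**Figure D4:**
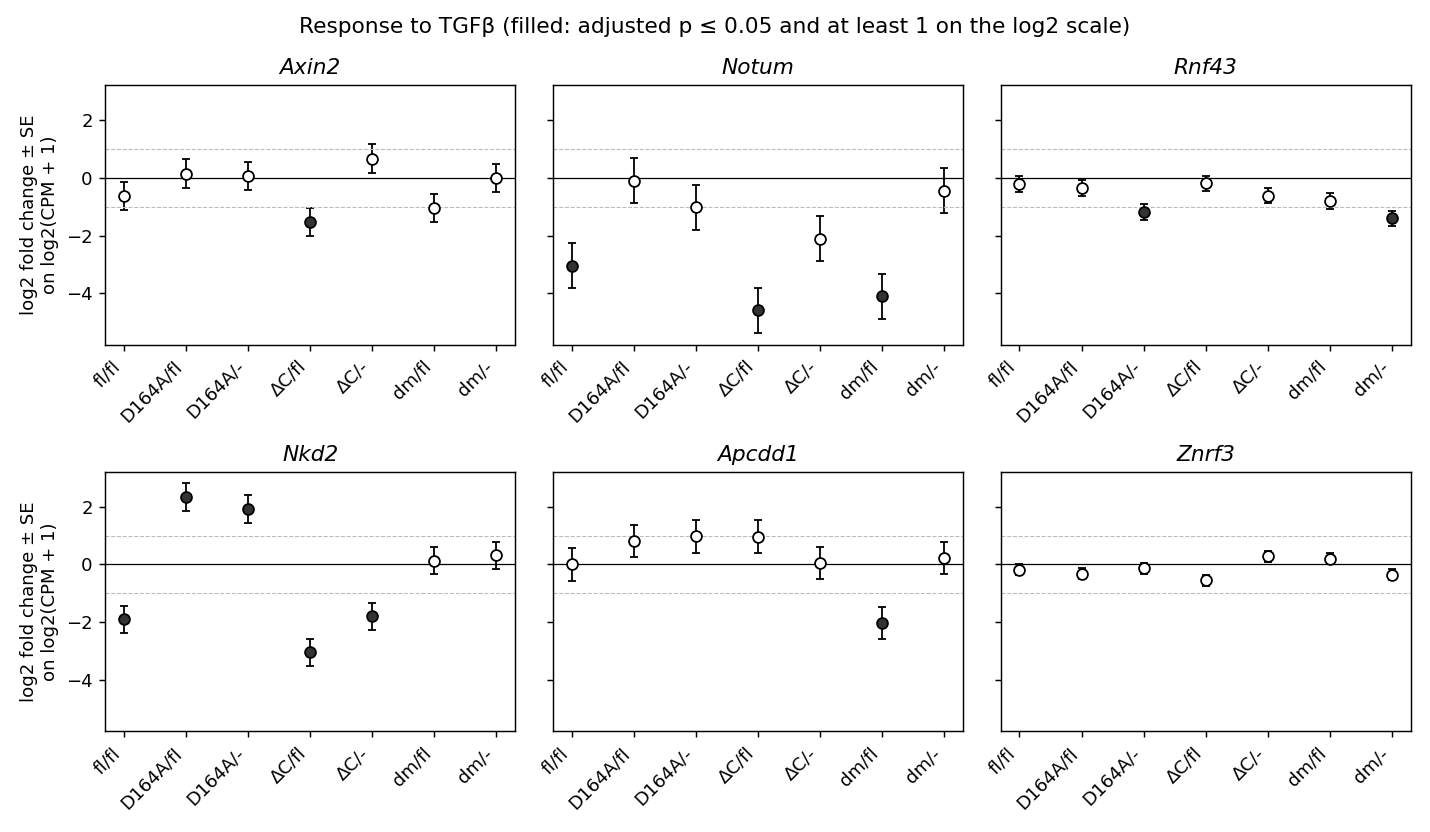
Response to TGFβ of the 6 tested genes in each genotype, as the log2 fold change on log2(CPM + 1) with its standard error from limma (2 treated against 2 untreated samples); filled points passed an adjusted p of 0.05 and a log2 fold change of 1. Notum is filled and below 0 in fl/fl, ΔC/fl and dm/fl cells, and Nkd2 is below 0 in fl/fl, ΔC/fl and ΔC/- cells and above 0 in D164A/fl and D164A/- cells. The standard error of a gene uses its replicate spread pooled over all 28 conditions.

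The rest of the pathway was followed through lists of its known members. Of 13 genes of the destruction complex and Dishevelled, among them Axin1, Apc and Gsk3b, all 13 were tested and 0 were called with Wnt3a in any genotype. Of 8 nuclear antagonists of Tcf and β-catenin, all 8 were tested and 0 were called. Of 14 extracellular Wnt inhibitors, 5 were tested. Wif1, a secreted protein that binds Wnt ligands, was called in the 2 D164A genotypes (background 2.85% in D164A/fl and 0.407% in D164A/- cells), from 1.05 and 1.23 to 5.4 and 2.46 CPM in D164A/fl cells and from 0.036 and 0 to 1.59 and 1.61 CPM in D164A/- cells (log2 fold changes 1.14 and 1.35, limma adjusted p = 6.7e-07 and 1.69e-07), and the other 4 were not called. Wif1 passed the filter on low values only through samples of these 2 genotypes, so its values are a description. Of 9 R-spondin, Lgr receptor and Lrp genes, 7 were tested, and calls were made in fl/fl cells. There Lgr6, a receptor for R-spondins, rose from 6.59 and 2.57 to 26.2 and 20.1 CPM, and Rspo3, which encodes an R-spondin, fell from 5.17 and 5.9 to 0.858 and 3.29 CPM (background in fl/fl cells 0.153% called higher and 0.225% called lower). Of 9 common Wnt target genes, 8 were tested. Tcf7, which encodes a Tcf factor, rose in fl/fl, ΔC/fl and dm/fl cells, with 7 and 5.79 against 32.5 and 26.8 CPM in fl/fl cells (log2 fold changes 2.05, 1.18 and 1.34, backgrounds 0.153%, 0.131% and 0.342%). Tnfrsf19, a receptor gene, had 2.29 and 1.61 CPM with Wnt3a in D164A/fl cells and 1.39 and 2.99 CPM in D164A/- cells (1.32 and 1.46, both called). It passed the filter only through these 4 samples and had at most 0.288 CPM in all others, so its values are a description as well. In dm/- cells, where the Axin2 response was not called, Tcf7 had 6.28 and 6.56 CPM untreated and 12.8 and 20.4 CPM with Wnt3a, without overlap, and its change of 1.21 was not called (adjusted p = 0.24).

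The genes whose mean log2(CPM + 1) over the 28 conditions correlated best with Axin2 were Stra6 (Pearson r = 0.912), a retinol transporter, Cyp4f39 (0.908), a cytochrome P450 enzyme, Fam83c (0.85), Ly6g6c (0.82) and Cryba4 (0.819). The 28 points share cell lines and libraries, and the correlations are given as a description. With Wnt3a, the mean level of Stra6 was 76.3 CPM in dm/fl and 0.961 CPM in dm/- cells, and that of Cyp4f39 was 0.23 CPM in dm/- cells. Among the other members, Notum ranked as number 17 (r = 0.736), Znrf3 as number 171 (0.532), Rnf43 as number 1386 (0.303), Nkd2 as number 2626 (0.213) and Apcdd1 as number 5116 (0.0852) of the genes tested.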

How the data were processed

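Cell lines were sequenced as stranded poly(A) RNA. According to the methods, the authors aligned reads with STAR to mm10, kept unique hits and counted reads starting in RefSeq exons with QuasR, and the strand setting is not given in the sources used here. The deposited signal values are CPM, reads divided by an effective library size, and all (100.0%) were whole reads within a tolerance of 0.001. The members and all lists were chosen with earlier results of these data known.

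The 13754 of 20314 genes that reached 1 CPM in 2 or more samples were tested on log2(CPM + 1) with limma 3.58.1 (R 4.3.3), with 28 condition means fitted over 56 samples, a trended variance and Benjamini-Hochberg adjustment over all genes tested. The test was checked on simulated counts with the same dispersion for every gene and no GC trend. Because the data differ from this, the check does not give error rates for them. Alternatives were a pseudocount of 0.1, no filter, median-of-ratios scaling, edgeR 4.0.16 (quasi-likelihood) on the whole reads, samples of 1 experiment, removal of the GC trend, a replicate block and leaving out each library. Genes were named when called in a comparison, for members in every genotype, and the 5 genes most like Axin2 by Pearson correlation. Intervals of read ratios cover counting error only. Promoter windows were from RefSeq on GRCm38.p6.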

Additional observations from a re-analysis of the deposited data

Results flagged for a closer look

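The Axin2 response to Wnt3a in dm/- cells differed from that in fl/fl cells by -5.73 (SE 0.7, limma adjusted p = 3.31e-05) and from that in dm/fl cells by -5.09 (SE 0.7, limma adjusted p = 0.000133). Both were marked for a closer look because the difference between 2 genotypes in the same contrast was itself called. Axin2 had 2 reads in the treated and 0 in the untreated dm/- libraries of this experiment.

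The Rnf43 response to Wnt3a was larger in D164A/fl than in fl/fl cells by 1.96 (SE 0.38, limma adjusted p = 0.0014), and it was marked for the same reason. Rnf43 was at 0.221 and 0.192 CPM in the untreated fl/fl cells, and the ratio-based difference from edgeR was 0.59 (adjusted p = 0.75).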

How the results depend on the processing

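No called change of a member turned its direction under any alternative, whereas several changes that were not called did. Counts of called members that moved by more than 1.5 times, and a few others, are given here against the main count. With a pseudocount of 0.1 the count fell from 2 to 1 for Wnt3a and for TGFβ in D164A/- cells, from 1 to 0 for Wnt3a in ΔC/- cells, for D164A/fl against fl/fl responses and for dm/- against dm/fl responses, and rose from 1 to 2 for the mean TGFβ response. edgeR gave the same counts as this pseudocount except for 0 in place of 1 for dm/- against fl/fl responses and 3 in place of 2 for the mean Wnt3a response. With the samples of 1 experiment the count was 2 in place of 4 for Wnt3a in D164A/fl cells, 1 in place of 2 in D164A/- cells, 0 in place of 1 in ΔC/- cells, 0 in place of 2 for D164A/- against D164A/fl levels with Wnt3a, and 2 in place of 1 for TGFβ in ΔC/- cells. Within the Wnt3a experiment the untreated D164A pair had 2 in place of 1.

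The labels do not say that a replicate number marks a shared culture or day. The rep1 minus rep2 deviations of treated and untreated cells correlated from -0.197 to 0.932 over the genotypes and experiments, so the block is given as an alternative. With the replicate block the count was 2 in place of 1 for Wnt3a in fl/fl and dm/fl cells, for TGFβ in ΔC/- cells and for D164A/fl against fl/fl responses. It was 1 in place of 0 for ΔC/- and dm/fl against fl/fl and for D164A/- against D164A/fl responses. The gene added for Wnt3a was Notum, higher, in fl/fl cells and Apcdd1, lower, in dm/fl cells. A crossed replicate block, chosen after seeing the data, gave 2 in place of 1 for TGFβ in ΔC/- cells. With the GC trend removed the count was 0 for Wnt3a in ΔC/- cells, 2 for TGFβ in ΔC/- cells and 3 for D164A/fl against fl/fl responses. With the GC trend removed and the replicate block it was 2 for Wnt3a in fl/fl and dm/fl, 4 in D164A/- and 0 in ΔC/- cells, 2 for TGFβ in ΔC/- cells, 4 for D164A/fl and 1 for dm/fl against fl/fl responses, and 2 for D164A/- against D164A/fl responses. For Wnt3a in D164A/fl cells it was 5 in place of 4 with the block, with the GC trend removed and with both. Over 9381 genes, the Wnt3a response correlated with gene GC content at Spearman 0.814 in fl/fl, 0.84 in ΔC/- and 0.437 in dm/- cells. The correlation was 0.004 in D164A/fl, 0.179 in D164A/-, -0.43 in ΔC/fl and -0.822 in dm/fl cells. The cause of these correlations and of the shifts in counts was not tested.

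Leaving out each library in turn gave counts for Wnt3a from 1 to 3 in fl/fl, 2 to 4 in D164A/fl, 1 to 2 in D164A/-, 1 in ΔC/fl, 0 to 1 in ΔC/-, 1 to 2 in dm/fl and 0 in dm/- cells, and 2 for the mean. For TGFβ they ran from 0 to 1 in fl/fl, 0 to 1 in D164A/fl, 0 to 2 in D164A/-, 2 to 3 in ΔC/fl, 0 to 1 in ΔC/- and 1 to 2 in dm/fl cells, with 1 in dm/- cells and for the mean. For differences in response they ran from 1 to 2 for D164A/fl and from 0 to 1 for ΔC/- against fl/fl, with 1 for both comparisons of dm/- and 0 for the rest. For levels with Wnt3a they ran from 0 to 3 for D164A, 3 to 4 for ΔC and 2 for dm, and untreated 1 for D164A, 2 to 4 for ΔC and 2 to 4 for dm. A group left with 1 library is assumed to vary like the others. Below 3 reads (0.0917 to 0.146 CPM) levels were not resolved.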
